A study of Mus musculus with 3 samples.

Results

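Smooth muscle cells and pericytes wrap blood vessels and are known together as mural cells, and 9 genes that mark them were followed here through 3 arrays of mouse muscle stem cells (MuSC, or satellite cells). Of these genes, Acta2, Tagln, Cnn1 and Myh11 encode contractile proteins of smooth muscle, Rgs5 and Kcnj8 a signaling regulator and a potassium channel of mural cells, and Pdgfrb, Cspg4 and Mcam proteins of the pericyte surface. They were chosen by name, and they are 9 of 18193 genes to which at least 1 probe set of the array is assigned alone. The 9 genes have 17 such probe sets, and each gene is read from the probe set of highest mean signal, with any others as a check.

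The arrays compare MuSC cultured for 3 days in 10% FBS with Oncostatin M (OSM), a cytokine of the interleukin-6 family, at 100 ng/mL (MuSC +OSM), MuSC cultured for 3 days in 10% FBS alone (MuSC −OSM), and MuSC taken directly after sorting (fresh MuSC). All came from muscle of wild-type C57BL/6 mice aged 8 weeks. Cells were sorted as positive for CD34 and α7 integrin, after antibodies to CD45, CD11b, CD31 and Sca1 had marked the cells to be removed, and the sources used here do not say whether animals were pooled. Each condition has 1 array in the labels, and whether its values average replicates is not stated, so no test was possible and no difference has a replicate check. A level is a MAS5 signal on a linear scale. Ratios were taken after signals under 40, the median of all signals, had been raised to 40, and a fold whose lower signal was raised in this way is written as "at least". A gene was measured in a comparison where 1 of the signals lay above 40, and it was called higher or lower at 2-fold.

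Mural cells hold vessel tone with a contractile apparatus of smooth muscle actin, myosin and their regulators, whose genes are driven by serum response factor (SRF) and its cofactor myocardin through a DNA element named the CArG box. Pericytes sit under the basement membrane of capillaries and depend on platelet-derived growth factor (PDGF) from the endothelium. None of the sorting antibodies is specific to them, and α7 integrin is also made by vascular smooth muscle. Some of the contractile genes are in addition switched on in cultured skeletal myoblasts, Acta2 among them, so that their level alone does not tell the cell type.

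The whole table sets the scale for what follows. With OSM, 6.07% of 11271 measured genes lay 2-fold or more above MuSC −OSM and 4.39% as far below it. In MuSC −OSM, 15.0% of 12755 were higher and 20.4% lower than in fresh MuSC, and in MuSC +OSM 13.8% of 12483 were higher and 17.2% lower than in fresh MuSC. The split depended on how arrays were scaled. Of the called genes, 58.0% were higher with OSM than without, against 72.2% with arrays centred on the median of all probe sets, 54.4% after quantile normalization and 49.1% when centred on probe sets above 40 on every array. The shares higher in MuSC −OSM than in fresh MuSC were 42.4%, 70.0%, 53.3% and 49.8% in the same order, and those for MuSC +OSM over fresh MuSC were 44.5%, 80.2%, 54.8% and 47.5%. Over all genes the log2 ratio of MuSC −OSM over fresh MuSC had a median of -0.14, and centring on all probe sets moved it to 0.37. In MuSC +OSM over fresh MuSC it was -0.14 and moved to 0.57, and in MuSC +OSM over MuSC −OSM it was -0.01 and moved to 0.16. Control probe sets for β-actin, whose ratio of 3′ to 5′ signal goes up as RNA degrades, gave 1.41 with OSM, 1.40 without OSM and 2.35 in fresh MuSC, and its part in the differences from fresh MuSC was not tested.

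The 9 genes did not share a direction. Against MuSC −OSM, 2 of 7 measured genes passed 2-fold upward in MuSC +OSM and 0 downward (median log2 ratio -0.11, against -0.01 over all genes). The higher genes were Pdgfrb and Kcnj8. In MuSC −OSM, 1 of 8 measured genes was higher than in fresh MuSC and 5 were lower (median -2.16, against -0.14). Acta2 was the higher gene, and Rgs5, Myh11, Kcnj8, Pdgfrb and Mcam were the lower ones. In MuSC +OSM, 1 of 8 was higher than in fresh MuSC and 4 were lower (median -0.76, against -0.14). Pdgfrb, lower in MuSC −OSM, was within 2-fold there. Over all measured genes the shares higher and lower were 6.07% and 4.39% in MuSC +OSM over MuSC −OSM. Against fresh MuSC they were 15.0% and 20.4% in MuSC −OSM and 13.8% and 17.2% in MuSC +OSM. The comparisons share arrays, so that a chance value on 1 array enters 2 of them.

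**Figure D1:**
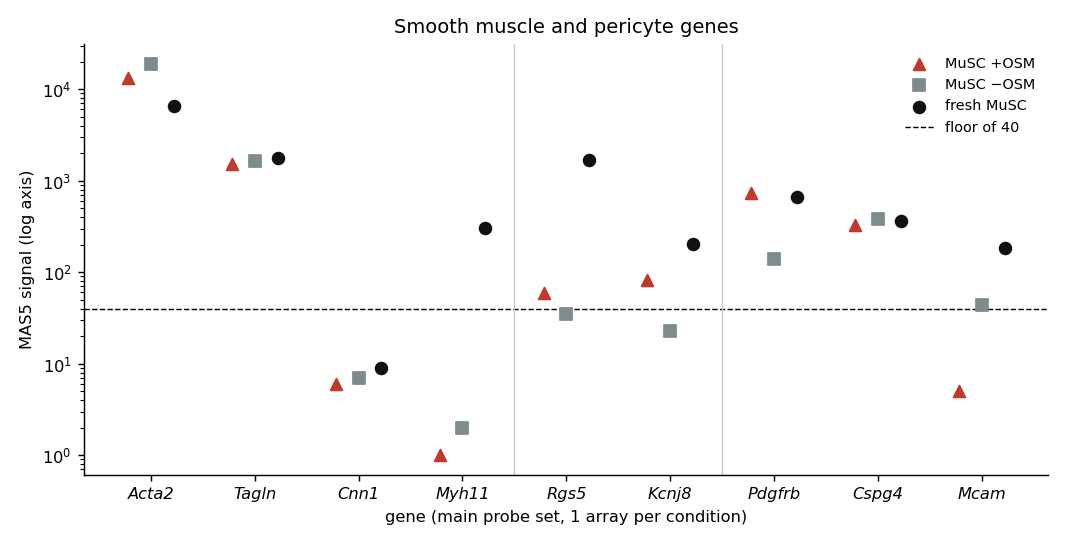
Signal of the main probe set of each of the 9 genes, drawn on a log scale, with MuSC +OSM as red triangles, MuSC −OSM as gray squares and fresh MuSC as black circles, 1 array each, and a dashed line at 40. Acta2 is highest in MuSC −OSM at 19053, Rgs5 is far above the line in fresh MuSC alone at 1687, and Pdgfrb is at 738 with OSM, 139 without OSM and 661 in fresh MuSC.

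Acta2 encodes smooth muscle α-actin, the main actin of contractile smooth muscle. Its signal was 13114 with OSM, 19053 without OSM and 6543 in fresh MuSC. It was thus 2.91-fold higher in MuSC −OSM than in fresh MuSC, above 92.2% of the measured genes by ratio, and 2.00-fold higher in MuSC +OSM, just past the threshold. With OSM it was 1.45-fold lower than without, within 2-fold. The main probe set has the suffix "_s_at", which marks probes that can match more than 1 transcript. Of the other probe sets of Acta2, 1 had signals of 182 with OSM, 177 without OSM and 38 in fresh MuSC, and the other had 91, 62 and 32 in that order. Both were higher in culture than in fresh MuSC as well, the weaker one within 2-fold without OSM, but neither was lower with OSM than without, so the order of the cultures was not settled by the probe sets.

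Other actins of muscle ran beside Acta2. Acta1, the skeletal muscle actin, had signals of 15326 with OSM, 23868 without OSM and 4243 in fresh MuSC. Actc1, the cardiac actin that embryonic skeletal muscle also makes, had 11647, 21413 and 2791 in that order, and Actg2, the actin of visceral smooth muscle, had 225, 299 and 65. All 3 were at least 2-fold higher in each culture than in fresh MuSC, as were 15.0% of all measured genes in MuSC −OSM and 13.8% in MuSC +OSM. Between MuSC +OSM and MuSC −OSM 0 of the 5 other actins passed 2-fold, where 6.07% of all measured genes were higher and 4.39% lower. Against fresh MuSC the cytoplasmic actins went the other way from Acta1, Actc1 and Actg2, within 2-fold. Actb had signals of 10888 with OSM, 10484 without OSM and 15915 in fresh MuSC, and Actg1 had 11232, 10807 and 18054. Actin messages are alike in sequence, and how much of a signal comes from a related actin was not tested.

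The promoters of Acta2 and of 3 other actins are shown because the CArG box is the shared element of the muscle actins. Each runs from 250 bases before to 50 bases after the transcription start, as RefSeq places it on GRCm38.p6, and is written 5′ to 3′ on the strand of the gene. Capitals mark matches to the CArG box (CC, 6 central bases, GG) in which at most 1 of the 6 central bases is G or C. The element reads alike on both strands, so 1 strand was searched, and overlapping matches would be counted. Acta2 lies at chr19:34255324-34255623 on the minus strand, Acta1 at chr8:123894726-123895025 on the minus strand, Actc1 at chr2:114052826-114053125 on the minus strand and Actg1 at chr11:120348446-120348745 on the minus strand.
Acta2: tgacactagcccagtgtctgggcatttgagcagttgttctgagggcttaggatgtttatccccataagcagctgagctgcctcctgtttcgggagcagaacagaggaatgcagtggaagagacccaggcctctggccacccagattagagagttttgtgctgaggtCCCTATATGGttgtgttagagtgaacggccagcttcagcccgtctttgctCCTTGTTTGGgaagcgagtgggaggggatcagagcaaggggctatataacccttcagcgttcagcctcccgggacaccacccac
Acta1: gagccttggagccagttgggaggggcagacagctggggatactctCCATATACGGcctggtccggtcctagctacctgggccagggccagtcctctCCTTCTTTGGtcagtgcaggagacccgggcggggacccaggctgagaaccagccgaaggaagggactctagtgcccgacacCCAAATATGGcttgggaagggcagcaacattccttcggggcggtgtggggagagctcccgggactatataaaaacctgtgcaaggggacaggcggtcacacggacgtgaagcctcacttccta
Actc1: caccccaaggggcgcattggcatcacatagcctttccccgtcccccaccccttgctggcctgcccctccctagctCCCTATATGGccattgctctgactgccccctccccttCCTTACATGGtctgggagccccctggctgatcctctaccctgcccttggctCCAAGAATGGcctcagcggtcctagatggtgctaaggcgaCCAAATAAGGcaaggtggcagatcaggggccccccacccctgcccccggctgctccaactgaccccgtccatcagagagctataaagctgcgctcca
Actg1: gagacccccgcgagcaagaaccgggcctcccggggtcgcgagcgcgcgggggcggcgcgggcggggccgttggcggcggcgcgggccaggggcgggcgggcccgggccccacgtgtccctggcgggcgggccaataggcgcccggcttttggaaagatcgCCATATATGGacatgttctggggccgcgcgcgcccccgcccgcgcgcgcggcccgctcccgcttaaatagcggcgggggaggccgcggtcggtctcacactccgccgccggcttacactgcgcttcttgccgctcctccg
Acta2 held 2 matches, beginning 84 and 34 bases before the start, each with 1 G or C in the center (CCCTATATGG and CCTTGTTTGG). Acta1 held 3 and Actc1 held 4, with 1 in each free of central G or C. Actg1, whose signal was not higher in culture, held 1 such match (CCATATATGG), so the 4 promoters shown all held a match. Promoters of Actg2 and Actb were not used here. Of 32851 promoters of this length, 9.98% held a match and 1.63% a match without central G or C. Promoters of 6 of the 9 genes were used, without those of Tagln, Myh11 and Pdgfrb. Those of Cnn1, Rgs5, Kcnj8, Cspg4 and Mcam held 0 matches. None of these 6 held TTCNNNGAA, the site bound by STAT factors, which also reads alike on both strands and was present in 8.30% of all promoters. An absent match says only that the letters are not in this window.

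Tagln, which encodes the actin-binding protein transgelin (SM22α) of smooth muscle, did not follow Acta2. The signal was 1533 with OSM, 1651 without OSM and 1791 in fresh MuSC, within 1.17-fold in every comparison. Tagln has only 1 probe set here. Its sign was not stable to scaling either, since the log2 ratio of MuSC +OSM to fresh MuSC was -0.22 as deposited and 0.50 with arrays centred on all probe sets. Transgelin is thus a smooth muscle message that was well above 40 on all 3 arrays and lay within 2-fold between them.

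Cnn1, which encodes calponin of differentiated smooth muscle, was at 6 with OSM, 7 without OSM and 9 in fresh MuSC. All these signals lie under 40, so no fold is given. Myh11, the myosin heavy chain that defines mature smooth muscle, had signals of 1 with OSM, 2 without OSM and 301 in fresh MuSC. It was at least 7.53-fold lower in either culture than in fresh MuSC. The other probe set of Myh11 had 16, 41 and 45 in the same order and did not show this difference, so the fresh level rests on 1 probe set. The genes most specific to mature smooth muscle among the 9 were therefore under 40 in both cultures by their main probe sets, on the arrays where Acta2 was highest.

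Rgs5, a regulator of G protein signaling that marks pericytes, gave the largest ratio of the 9 genes with the floor at 40. With no floor, Myh11 passed it. The signal of Rgs5 was 59 with OSM, 35 without OSM and 1687 in fresh MuSC. Without OSM it was at least 42.2-fold under fresh MuSC, a ratio with only 0.29% of the measured genes below it, and 28.6-fold lower in MuSC +OSM. All 3 other probe sets went the same way, with signals of 98, 223 and 401 in fresh MuSC and none above 22 in either culture. With OSM the main probe set was at least 1.48-fold higher than without, within 2-fold.

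Kcnj8 encodes the pore of an ATP-sensitive potassium channel (Kir6.1) of mural cells. Its signal was 83 with OSM, 23 without OSM and 203 in fresh MuSC, so the culture with OSM lay between the others. With OSM it was at least 2.08-fold higher than without. Set against fresh MuSC, it was 2.45-fold lower with OSM and at least 5.08-fold lower without. With the floor at 80 the ratio between the cultures was at least 1.04-fold, and that call was lost. The call against fresh MuSC was lost in MuSC +OSM with arrays centred on all probe sets (1.48-fold lower) and after quantile normalization (1.97-fold lower). Abcc9, the partner subunit of this channel, did not run with it and had 963 with OSM, 816 without OSM and 314 in fresh MuSC.

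Pdgfrb, the receptor through which PDGF recruits pericytes, had a signal of 738 with OSM, 139 without OSM and 661 in fresh MuSC. The level in MuSC +OSM was 5.31-fold that in MuSC −OSM, above 99.3% of the measured genes by ratio, and 1.12-fold that in fresh MuSC. Without OSM it was 4.76-fold lower than in fresh MuSC. The other probe set of Pdgfrb was weaker, at 53 with OSM, 19 without OSM and 104 in fresh MuSC. It had MuSC −OSM lowest too, but the cultures differed by at least 1.33-fold there, short of a call, and MuSC +OSM lay 1.96-fold under fresh MuSC. Fibroblasts also make this receptor. Of the 9 measured genes in a list of fibroblast markers, 5 passed 2-fold upward with OSM and 0 downward, against 6.07% and 4.39% over all genes. The other 4, Pdgfra, Lum, Dpt and Mfap5, were within 2-fold. The summed signal of the 10 listed genes was 10928 with OSM, 3508 without OSM and 48322 in fresh MuSC. Col3a1 alone gave 7683, 2249 and 13247 of these. Decorin (Dcn), a matrix proteoglycan of fibroblasts, was at 373, 32 and 12179 in that order. The part of fibroblasts in the level of Pdgfrb was not tested.

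Cspg4, the NG2 proteoglycan of pericytes and other progenitors, was at 331 with OSM, 381 without OSM and 362 in fresh MuSC, within 1.15-fold in every comparison. The other probe set had 155, 151 and 186. Mcam, the adhesion molecule CD146, had signals of 5 with OSM, 44 without OSM and 186 in fresh MuSC. Set against fresh MuSC, it was at least 4.65-fold lower with OSM and 4.23-fold lower without. Between the cultures the ratio was within 2-fold, as the signal with OSM lay under 40. With the floor at 20 it was at least 2.20-fold lower with OSM. By their main probe sets the surface markers of pericytes thus took 3 courses. Cspg4 was within 2-fold on all arrays, Mcam was low in both cultures and Pdgfrb was low only in MuSC −OSM. The other probe set of Pdgfrb, at 53 with OSM, 19 without OSM and 104 in fresh MuSC, gave no call between the cultures.

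**Figure D2:**
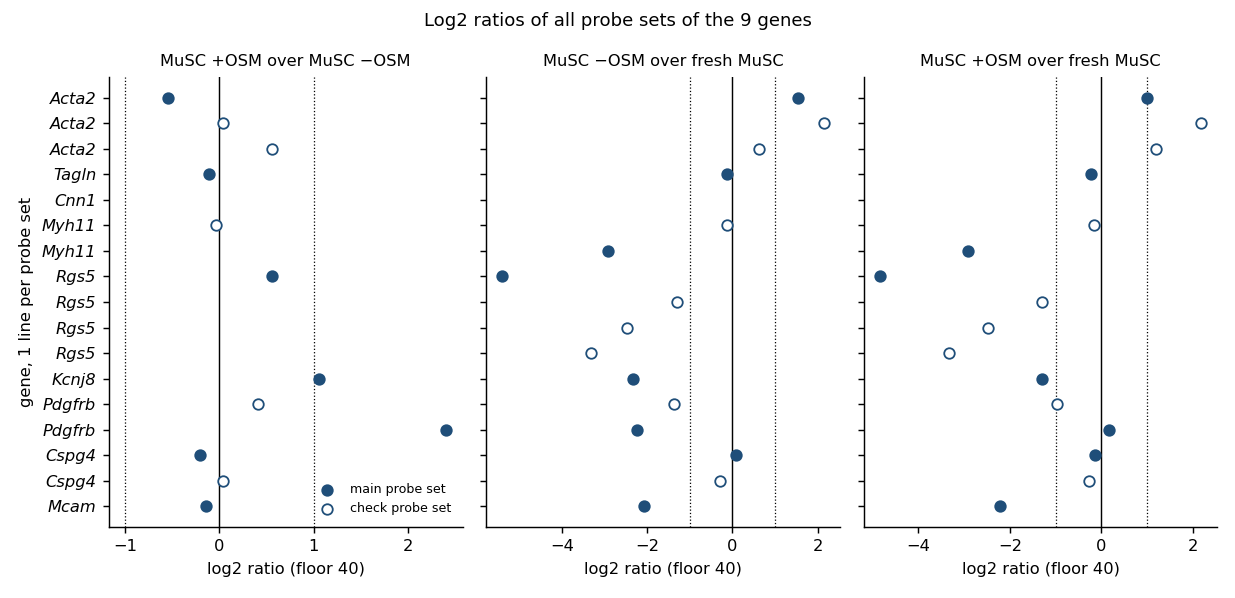
Log2 ratio of each of the 17 probe sets in the 3 comparisons, with the main probe set of a gene filled and the others open, dotted lines at 2-fold, and no point where both signals lie under 40. All 4 probe sets of Rgs5 lie left of the dotted line at -1 against fresh MuSC, whereas in MuSC +OSM over MuSC −OSM the main probe set of Pdgfrb lies at 2.41 and the other at 0.41.

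A wider list of contractile and cytoskeletal genes of smooth muscle, without the 9 genes, held genes of both directions. Of 28 measured genes, 6 passed 2-fold upward with OSM and 2 downward (median log2 ratio 0.10). In MuSC −OSM 10 of 34 were higher and 11 lower than in fresh MuSC (median -0.33), and in MuSC +OSM 10 were higher and 6 lower (median -0.13). The shares of all measured genes higher and lower were 6.07% and 4.39% with OSM against without. Against fresh MuSC they were 15.0% and 20.4% in MuSC −OSM and 13.8% and 17.2% in MuSC +OSM. Among the genes named by the size of their ratio, those higher in culture are ones that skeletal muscle also uses. Tpm1, a tropomyosin, had 1883 with OSM, 7982 without OSM and 457 in fresh MuSC. Synpo2, an actin-bundling protein of the Z-disc, had 878, 3096 and 307 in that order. The PDZ-LIM protein gene Pdlim7 had 957, 1196 and 135, and Des, which encodes the intermediate filament protein desmin, had 7248, 6183 and 744. Tpm1 and Synpo2 were the 2 genes lower with OSM, by 4.24-fold and 3.53-fold. Not all genes higher in culture were named by this rule. The smooth muscle genes Smtn and Actg2 were also at least 2-fold higher in each culture than in fresh MuSC. Smtn, named after its values were seen, had 275 with OSM, 329 without OSM and 118 in fresh MuSC.

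Other genes of this list were low in culture. Itga8, an integrin of smooth muscle, had 71 with OSM, 71 without OSM and 719 in fresh MuSC. Mylk, the kinase that starts smooth muscle contraction, had 139, 98 and 504 in that order, and its substrate Myl9 had 388, 314 and 1271. Ppp1r14a, which inhibits myosin phosphatase, was at 1, 1 and 95, and Aoc3, an amine oxidase of smooth muscle and fat, at 1, 3 and 175. These 4 genes were named after their values were seen. Tagln2, a relative of transgelin found in many cells, was at 830 with OSM, 227 without OSM and 1372 in fresh MuSC. Like Pdgfrb it was higher with OSM than without, by 3.66-fold, but its signal was highest in fresh MuSC. The other genes at least 2-fold higher with OSM, also named after their values were seen, were Csrp1, Lpp, Tpm4, Cnn2 and Itga1. Of these, Csrp1, a LIM protein of smooth muscle and other cells, had 869 with OSM, 276 without OSM and 729 in fresh MuSC, and Itga1, an integrin that binds collagen, had 84, 18 and 80.

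Pericyte and mural cell genes outside the 9 also held both directions. In MuSC −OSM 12 of 20 measured genes were at least 2-fold lower than in fresh MuSC and 3 were higher (median log2 ratio -1.23). In MuSC +OSM 10 of 20 were lower and 3 higher (median -1.02), and with OSM 2 of 16 were higher and 1 was lower than without (median 0.23). Of all measured genes, 20.4% were lower and 15.0% higher in MuSC −OSM than in fresh MuSC. For MuSC +OSM over fresh MuSC 17.2% were lower and 13.8% higher, and with OSM against without 6.07% were higher and 4.39% lower. Vtn, which encodes vitronectin, had 42 with OSM, 34 without OSM and 1018 in fresh MuSC. Steap4, a metalloreductase, was at 2, 5 and 397 in that order, and Art3, an ADP-ribosyltransferase that muscle makes too, at 69, 75 and 892. The receptor Notch3 had 263 with OSM, 319 without OSM and 2947 in fresh MuSC, and Heyl, a target of Notch, had 86, 143 and 1196, but both are also genes of quiescent satellite cells. The genes higher than in fresh MuSC were Pdlim3, Des and Abcc9, the last at 963, 816 and 314. Pdlim3 and Des belong to skeletal muscle as well, and which cells gave the signal of Abcc9 was not tested. Pdlim3 had 3875 with OSM, 9911 without OSM and 379 in fresh MuSC and was the gene at least 2-fold lower with OSM. Higher with OSM were Rgs4, a relative of Rgs5, at 135, 52 and 394, and the transcription factor gene Foxc1 at 129, 21 and 174, both named after their values were seen.

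PDGF ligands and the other receptors were set beside Pdgfrb. Pdgfa had 594 with OSM, 282 without OSM and 745 in fresh MuSC, and it was the only 1 of 5 measured genes called with OSM, at 2.11-fold higher, with 0 lower. Pdgfb, the ligand that calls pericytes, was at 35, 77 and 23 in that order, and Pdgfc at 727, 385 and 121. Pdgfd was above 40 in fresh MuSC alone, at 98, against 2 in MuSC +OSM and 5 in MuSC −OSM. Pdgfra, the α receptor that marks fibro-adipogenic progenitors, had 43 with OSM, 17 without OSM and 140 in fresh MuSC, and Pdgfrl, a receptor-like gene, had 104, 93 and 951. In MuSC −OSM 4 of 6 were at least 2-fold lower than in fresh MuSC and 1 was higher, whereas in MuSC +OSM 3 of 5 were lower and 1 higher. The shares of all measured genes lower and higher were 20.4% and 15.0% in MuSC −OSM and 17.2% and 13.8% in MuSC +OSM. With OSM against without, 6.07% of all measured genes were higher and 4.39% lower.

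Regulators of the smooth muscle program came last. Myocd, which encodes myocardin, was at 16 with OSM, 4 without OSM and 42 in fresh MuSC. Srf had 353, 316 and 640 in that order. With OSM, 3 of 22 measured regulators passed 2-fold upward and 2 downward. Set against fresh MuSC, MuSC +OSM had 5 of 22 higher and 5 lower, and MuSC −OSM had 5 of 23 higher and 5 lower. Over all measured genes 6.07% were higher and 4.39% lower with OSM than without. Against fresh MuSC these shares were 13.8% and 17.2% in MuSC +OSM and 15.0% and 20.4% in MuSC −OSM. Tgfbr2, a receptor for TGF-β, which induces contractile genes, was at 2139 with OSM, 318 without OSM and 1791 in fresh MuSC. Its order was that of Pdgfrb, with 6.73-fold more in MuSC +OSM than in MuSC −OSM. Klf4, a repressor of smooth muscle genes, had 1592 with OSM, 530 without OSM and 9918 in fresh MuSC. Klf5 ran against it, with 702, 1801 and 333, and Tead4, a factor of myogenic differentiation, had 160, 396 and 14.

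**Figure D3:**
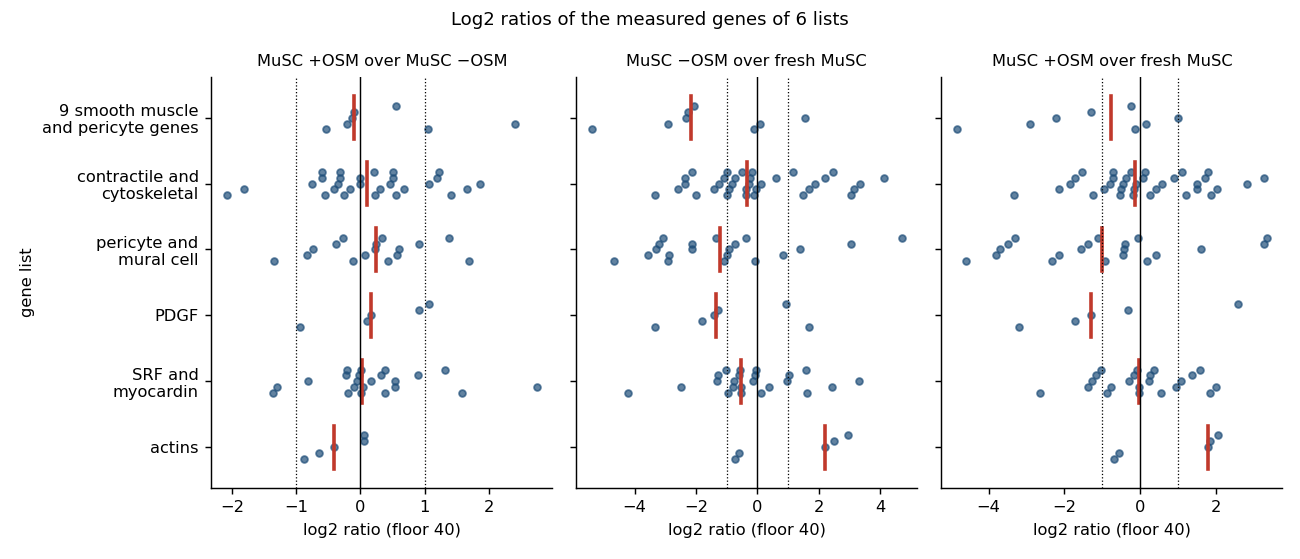
Log2 ratios of the measured genes of the 9-gene list and 5 other lists in the 3 comparisons, with 1 point per gene, a red bar at the median of each list and dotted lines at 2-fold. In MuSC −OSM over fresh MuSC the 9 genes have a median of -2.16 and the pericyte list -1.23, whereas the 5 other actins have 2.20.

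Markers of other cells were read on the same arrays. The myogenic identity of all 3 arrays was marked by Pax7 at 431 with OSM, 282 without OSM and 4006 in fresh MuSC, and by Myog at 14369, 21248 and 1530. The endothelial list summed to 252 with OSM, 311 without OSM and 1494 in fresh MuSC over 12 genes, of which 1, 2 and 7 lay above 40. Its defining marker Pecam1, which encodes the CD31 used in the sort, was at 2, 4 and 4. Tek, a receptor of endothelium, was at 25, 42 and 791 and the cadherin gene Cdh5 at 22, 6 and 268. The leukocyte list summed to 258, 284 and 1446 over 10 genes with Ptprc, or CD45, at 7, 2 and 1. Lyz2, the lysozyme of myeloid cells, was at 13 with OSM, 13 without OSM and 1204 in fresh MuSC, and the other 9 genes summed to 245, 271 and 242, so this list was higher in fresh MuSC by Lyz2 alone. Csf1r, a receptor of macrophages, was at 149, 62 and 58, and Adgre1, which encodes F4/80, at 41, 83 and 40. The Schwann cell list of 4 genes summed to 497, 260 and 4454 and the tenocyte list of 6 genes to 669, 545 and 12297. Within the tenocyte list Scx went the other way, at 104, 327 and 48. Ngfr of the Schwann cell list, at 286, 156 and 167, was within 2-fold of fresh MuSC in both cultures. The array of fresh MuSC thus carried more signal of the fibroblast, Schwann cell and tenocyte lists, also with the gene of highest signal left out of each. Without Tek the endothelial list summed to 227, 269 and 703, Cdh5 included. The median of all probe sets was 32, 36 and 53 in that order, so the sum of this remainder does not set its weak genes apart from background. Cdh5 and Esam, the latter at 28, 39 and 97, were at least 2-fold lower in both cultures than in fresh MuSC. The other genes of the remainder were within 2-fold of fresh MuSC or not measured. Rgs5, Myh11, Kcnj8 and Mcam were also highest in fresh MuSC. The part of mural or other cells in these levels was not tested. A sum highest in fresh MuSC was not particular to other cells, as the satellite cell list of 10 genes summed to 7189, 5302 and 37881. Within the satellite cell list Itga7, which encodes the α7 integrin used in the sort, went the other way, at 1238, 1808 and 499. Cxcr4, at 988, 629 and 559, was within 2-fold of fresh MuSC in both cultures. The myoblast and myocyte list of 10 genes was lowest in fresh MuSC, at 56359, 101572 and 8382. In bulk samples fewer cells of a type and less RNA per cell cannot be told apart.

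**Figure D4:**
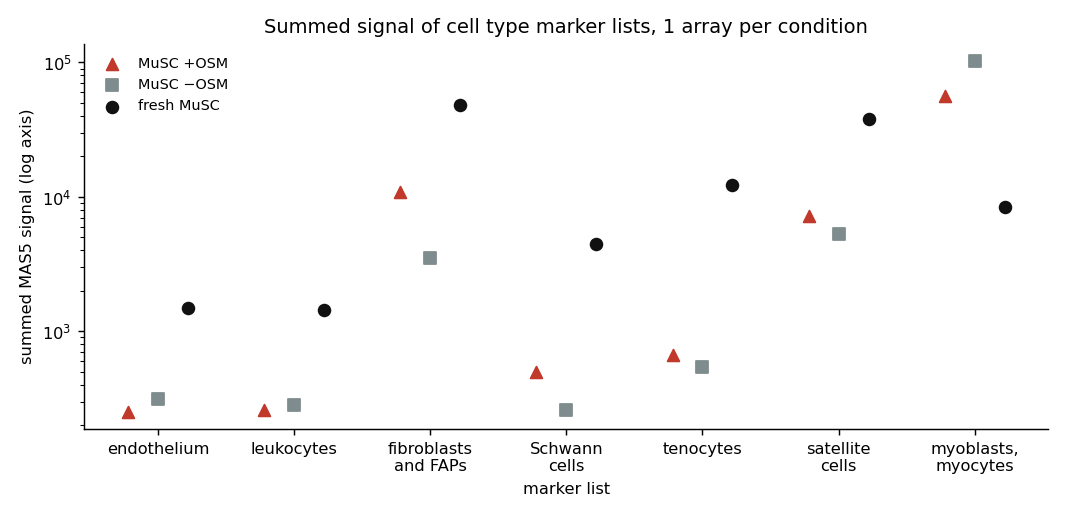
Summed MAS5 signal of 7 lists of cell type markers, drawn on a log scale, with MuSC +OSM as red triangles, MuSC −OSM as gray squares and fresh MuSC as black circles, 1 array each. Points are to be compared within a list. The 5 non-myogenic sums and the satellite cell sum are highest in fresh MuSC, for example at 12297 for tenocytes. The leukocyte sum of 1446 holds 1204 from Lyz2.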

How the data were processed

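Total RNA of each condition was amplified by the authors with 3′ IVT Express reagents and hybridized to Affymetrix MOE_430_2 arrays, 1 per condition. The authors deposited MAS5 signal intensity on a linear scale, and the sources used here do not give its version. After trimming 2% at either end, every array had a mean of 200.0. Precision is limited by having 1 array per condition. A figure legend of the study describes its OSM array data as averaged from 2 biological replicates, and whether each deposited column is such a mean or 1 hybridization is not stated. Conditions came from the sample labels, and columns were matched by name. From the values, log2 ratios were taken with numpy 2.4.6 and pandas 2.3.3 under Python 3.11.15. Of 45037 probe sets, 64 controls left out, 34945 name 1 gene, 932 several and 9160 none in the platform annotation. Of those naming 1 gene, 34741 had an identifier in the RefSeq gene table. Symbols were taken from that table by identifier where it was found, and kept as given elsewhere.

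Members and lists were chosen with earlier results of these data known. All 9 genes are named, with up to 6 genes per list by the largest log2 ratio in MuSC +OSM over MuSC −OSM or MuSC −OSM over fresh MuSC, all actin and PDGF genes and defining markers, with the genes nearest in pattern. Abcc9, Srf and Myocd, and others marked in the text, were chosen with their values in view. Some listed genes are not reported here. Des, Actg2, Actc1 and Pdgfra stand in more than 1 list. The ratio step was tested on simulated data. Alternatives were the scaling, the floor (20, 80 or none with a pseudocount of 1), the probe set and a threshold of 1.5-fold or 3-fold. Leaving the gene of highest signal out of each marker sum was added after seeing the data. Promoters are from RefSeq on GRCm38.p6.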

Additional observations from a re-analysis of the deposited data

How the results depend on the processing

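With 1 array per condition, leaving out a replicate was not possible. No paired analysis was possible because no condition has more than 1 array. Of 13 calls among the 9 genes, 10 stood under all 8 alternatives of scaling, floor and probe set, where Rgs5 in MuSC −OSM over fresh MuSC ranged over log2 ratios of -5.59 to -3.12. The choice of probe set could not change the calls of Kcnj8 and Mcam, which have only 1 probe set. For Myh11 and Rgs5 the probe set without a suffix was the main one. Taken alone, the other probe set of Myh11 gave no call against fresh MuSC, at -0.17 with OSM and -0.13 without. In MuSC +OSM over MuSC −OSM the number higher was 1 in place of 2 with the floor at 80, with probe sets without a suffix and at 3-fold, and the number lower was 1 in place of 0 with the floor at 20 and with none. The median log2 ratio of MuSC −OSM over fresh MuSC was -1.28 with the floor at 80, and that of MuSC +OSM over fresh MuSC was -0.029 with arrays centred on all probe sets. At 3-fold 0 genes were higher than in fresh MuSC in either culture, in place of 1. For the contractile, pericyte, PDGF and SRF lists together, 77 of 336 values moved by over 1.5-fold. For single members 35 of 182 did, and the cause was not tested. The actin list and the lists of cell type markers were not run under the alternatives. Centring on probe sets above 40 on every array was chosen after seeing the data, and 0 of the calls for the 9 genes changed with it.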

Other observations

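The genes nearest in pattern were sought for 7 of the 9 genes, without Cnn1 and Mcam, which lay under 200 on all 3 arrays, among the 7802 genes that reached 200 on any array, as the smallest distance between log2 signals centred on their mean over the 3 arrays. With 3 arrays many genes lie close, and nearness says nothing of shared function. Nearest to Pdgfrb were Larp6, at 212 with OSM, 34 without OSM and 184 in fresh MuSC, then the phosphatase gene Ptprg at 591, 100 and 528, and Bcl3, an IκB relative, at 372, 59 and 310 (distances of 0.038, 0.125 and 0.176). Nearest to Kcnj8 were Sox8 at 95, 46 and 223, the thrombin receptor gene F2r at 3313, 1513 and 7880, and Mllt6. Rgs5 had no gene as close, the nearest being the sphingosine 1-phosphate receptor gene S1pr3 at 129 with OSM, 68 without OSM and 3154 in fresh MuSC, at a distance of 0.259. Acta2 was nearest to Aimp2, Bicd2 and Ddx51, Tagln to Rnaseh2c, Hnrnpu and Crkl, and Cspg4 to Chic2, Ngdn and Cux1, whose distances were all under those of S1pr3. For Myh11 the nearest genes were Dbx1, Abcb1a and Plekha6, all under 40 in both cultures, where the order is not known.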
